A study of Mus musculus with 224 samples.

Results

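The genes described here are 10 fatty acid desaturases and elongases of the mouse: Scd1, Scd2, Fads1, Fads2, Fads3, Elovl1, Elovl2, Elovl3, Elovl5 and Elovl6. They were chosen by name, by matching the Ensembl gene identifiers of 3 expression tables to gene symbols, and all 10 had a row in the liver table of 12611 genes, the soleus muscle table of 13637 genes and the visceral adipose table of 16542 genes. All 10 also passed the filter on low values in each tissue. RNA sequencing measured 72 animals per tissue in 18 groups of 4, made up of the inbred strains BALB/cJ, DBA/2J (DBA/2JJ in the sample labels) and C57Bl/6J, 2 diets and 3 times. By the sample titles the 3 tissues came from the same 72 animals, so the tissues are not independent sets of animals. The diets were a high-fat diet (HFD) and a regular chow (RC), and the animals were sampled on day 5, day 13 or day 33 by the sample labels. No genetic change or drug is named for any group, and age, sex, diet composition and hour of sampling are not given in the sources used here.

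Desaturases add a double bond to a fatty acid carried on coenzyme A, and elongases catalyse the rate-limiting condensation step that lengthens it in the endoplasmic reticulum. Scd1 and Scd2 make monounsaturated from saturated fatty acids, while Fads2 and Fads1 act in turn on the essential fatty acids on the way to arachidonic acid and docosahexaenoic acid. Several of these genes, Scd1 and Elovl6 among them, are known targets of the lipogenic transcription factor SREBP-1c in liver and adipose tissue, and dietary polyunsaturated fat is known to lower their expression.

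Levels are given as log2 CPM, a library-size-scaled read count on the log2 scale, so that 1 unit is a change by a factor of 2. The libraries held between 1.81e+07 and 3.20e+07 reads in liver, between 1.99e+07 and 3.34e+07 in muscle, and between 1.98e+07 and 4.68e+07 in adipose tissue. Defining markers fitted the labelled tissue in most libraries: the mean of 6 hepatocyte markers was 12.28 to 13.17 in liver and the mean of 8 muscle fibre markers was 10.04 to 13.84 in muscle. In adipose tissue the mean of 7 adipocyte markers was 8.84 or higher in 70 libraries. It was 2.35 in the BALB/cJ HFD day 5 animal 3HF201 and 2.90 in the BALB/cJ HFD day 33 animal 3HF208. Some adipose diet differences that include these libraries are given with and without them, and the rest only with them. B cell markers averaged over 4 in 40 of the 72 adipose libraries, 19 on HFD and 21 on RC. In such tissue samples, fewer cells of a type and less RNA per cell cannot be told apart.

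**Figure D1:**
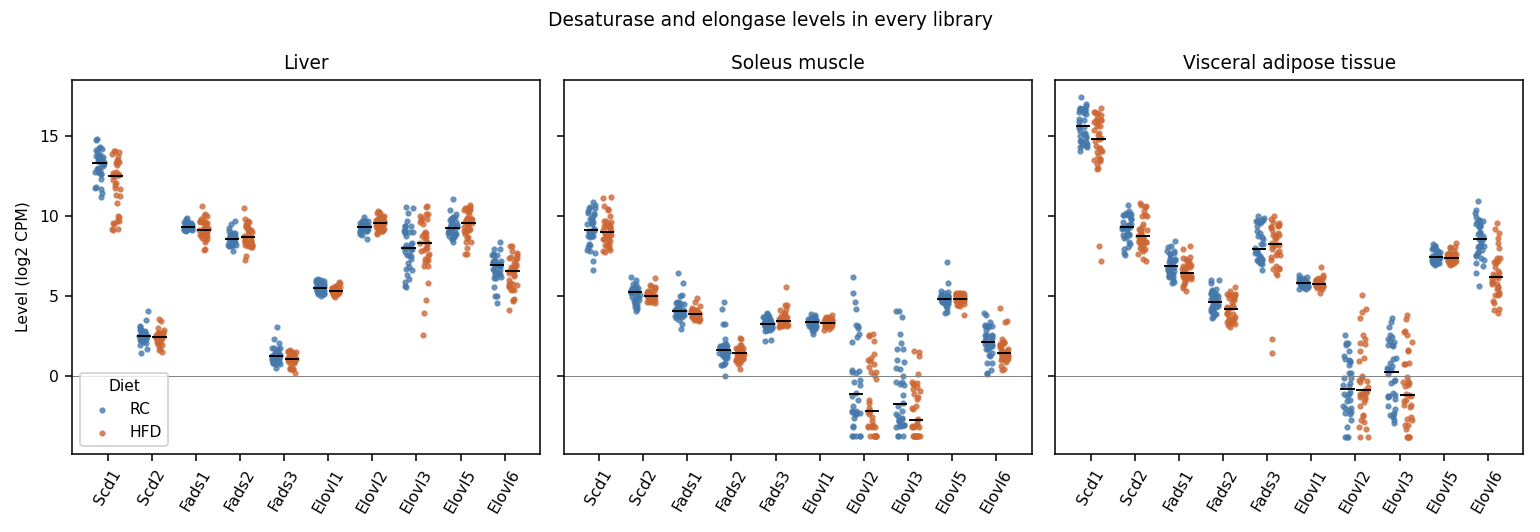
Level of each of the 10 genes in log2 CPM (vertical axis) in all 72 libraries of each tissue; each point is a library, blue for RC and orange for HFD, and each black line is the median of 36 libraries. Scd1 is the highest gene in each tissue, and Elovl2 and Elovl3 spread widely in muscle and adipose tissue.

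The genes lie on 5 chromosomes of the GRCm38 assembly. Scd2 (19:44293674-44306864), Scd1 (19:44394455-44407879) and Elovl3 (19:46131897-46135694) share chromosome 19 with the neighbours Fads3 (19:10041569-10060110), Fads2 (19:10062765-10101746) and Fads1 (19:10182888-10196877). Elovl6 is at 3:129532355-129638495, Elovl1 at 4:118428093-118432953, Elovl5 at 9:77917364-77984519 and Elovl2 at 13:41182381-41220405. RefSeq promoter entries matched 6 of the 10 symbols: Fads2, Fads3, Elovl1, Elovl2, Elovl5 and Elovl6. The upstream sequences of 3 elongases with diet differences called below, Elovl6 in adipose tissue and Elovl5 and Elovl2 in DBA/2J liver, are shown so that their letters can be compared, chosen after those values were seen, from RefSeq on GRCm38.p6, in lower case on the gene's strand, ending at the base before the annotated start.
Elovl6: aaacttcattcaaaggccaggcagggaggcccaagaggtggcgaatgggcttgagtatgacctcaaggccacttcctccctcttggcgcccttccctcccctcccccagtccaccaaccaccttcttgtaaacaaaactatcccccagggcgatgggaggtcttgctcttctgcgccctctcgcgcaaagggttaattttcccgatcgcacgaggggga
Elovl5: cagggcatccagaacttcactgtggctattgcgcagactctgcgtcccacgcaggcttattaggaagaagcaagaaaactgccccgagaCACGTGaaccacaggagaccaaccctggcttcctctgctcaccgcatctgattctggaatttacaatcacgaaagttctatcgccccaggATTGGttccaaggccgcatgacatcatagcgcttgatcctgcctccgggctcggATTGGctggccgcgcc
Elovl2: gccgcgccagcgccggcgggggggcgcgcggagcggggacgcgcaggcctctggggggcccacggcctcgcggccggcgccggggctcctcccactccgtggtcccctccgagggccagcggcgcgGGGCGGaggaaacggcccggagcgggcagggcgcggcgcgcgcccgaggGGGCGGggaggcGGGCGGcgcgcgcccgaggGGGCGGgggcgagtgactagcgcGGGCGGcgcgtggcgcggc
Capitals mark matches on either strand to the motifs searched. The Elovl6 stretch (3:129532136-129532354, plus strand) held no match. The Elovl5 stretch (9:77917115-77917363, plus strand) held 2 matches to the CCAAT box, searched by its own letters, and 1 to the E-box, searched as CACGTG. The Elovl2 stretch (13:41220406-41220653, minus strand) held 5 matches to the GC box, searched as GGGCGG. Among 32851 RefSeq promoters of 250 bases, 33.8% held the first motif, 6.02% the E-box and 32.7% the GC box. A sterol response element core, searched as TCACNCCA, and a cAMP response element, searched as TGACGTCA, had no match in these 3 stretches, against 3.67% and 1.55% of all promoters. A match is only a run of letters, not a measured binding site.

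In liver, Scd1 was the highest of the 10 genes per kilobase of exon, at a mean of 10.24 log2 CPM per kilobase. Elovl5 (7.53), Elovl2 (7.44), Elovl3 (7.10), Fads1 (6.97) and Fads2 (6.93) followed, and no neighbours among these 5 differed by more than the larger of their SDs over 72 animals. Elovl1 (3.97) and Elovl6 (3.87) formed the next pair, and Scd2 (0.01) and Fads3 (-0.78) were the lowest. In muscle, Scd1 again led at 6.82 log2 CPM per kilobase, followed by Elovl5 (2.98) and Scd2 (2.62), which did not differ beyond their SDs. Elovl1 (1.86), Fads1 (1.75) and Fads3 (1.47) were alike by the same measure, and Fads2 (-0.19), Elovl6 (-0.84), Elovl3 (-2.51) and Elovl2 (-2.85) were the low end. In adipose tissue Scd1 stood at 12.77 log2 CPM per kilobase, 6.16 above the next gene, Scd2 (6.61). Fads3 (6.15), Elovl5 (5.62), Elovl6 (4.75), Fads1 (4.47) and Elovl1 (4.33) came next without a gap beyond their SDs, before Fads2 (2.68), Elovl3 (-1.32) and Elovl2 (-2.51). The 3 tables were normalized separately, so the order within a tissue was described and levels were not tested between tissues.

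The question put to the diet was whether the desaturases and elongases differed between HFD and RC animals, over all strains and days and within each. In liver, 3 of the 10 genes passed an adjusted p of 0.05 over the 9 combinations of strain and day (limma with Benjamini-Hochberg adjustment over all genes tested), beside 21.2% of all genes. Scd1 and Elovl1 fell and Elovl2 rose. The median log2 difference of the 10 genes was -0.14, against 0.01 for all genes.

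Scd1, the main hepatic desaturase, which makes oleate from stearate, was 9.07 at the lowest, 12.47 at the median and 14.06 at the highest of 36 HFD livers. The 36 RC livers had 11.13, 13.28 and 14.78 log2 CPM. The diets overlapped, with the HFD range reaching lower by 2 units. Scd1 fell by 1.25 on the log2 scale (SE 0.23, adjusted p = 4.34e-05), a 2.38-fold lower level, and its mean was lower in 9 of 9 combinations of strain and day. Within strain the differences were -1.43 ± 0.40 (SE) for C57Bl/6J animals, -1.11 ± 0.40 for DBA/2J and -1.22 ± 0.40 for BALB/cJ, with adjusted p of 0.0365, 0.0378 and 0.0297 from limma. These within-strain calls were lost without 11, 9 and 7 of the 72 animals respectively, with adjusted p up to 0.121, 0.0922 and 0.0757. The C57Bl/6J call was also lost with voom on recovered reads (adjusted p = 0.052), quantile normalization (0.0511) and only the compared animals in the fit (0.116). The DBA/2J call was lost with the range of animal numbers as a covariate (0.0541), and the BALB/cJ call with quantile normalization (0.0744) and with only the compared animals (0.0971). Within the 3 ranges of animal numbers, which the labels do not describe as batches, the mean HFD minus RC difference of Scd1 was -1.24, -0.61 and -1.72, and that of Elovl2, described below, 0.20, 0.37 and 0.01.

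The low Scd1 values came from particular groups. In DBA/2J on day 33, the 4 HFD livers had 10.78, 9.45, 9.94 and 9.07 log2 CPM. Their 4 RC counterparts had 12.97, 12.57, 12.58 and 13.64. The groups did not overlap, and Scd1 fell by 3.13 on the log2 scale (SE 0.69, limma adjusted p = 8.54e-04), to an 8.73-fold lower level, in a comparison that called 15.9% of all genes. In C57Bl/6J on day 33, the HFD livers of animals 1HF209 and 1HF257 had 14.06 and 13.70 log2 CPM, within the RC range of 13.40 to 14.75, and those of 1HF258 and 1HF259 had 9.63 and 9.17. In BALB/cJ on day 5, the HFD livers had 9.53, 9.95 and 9.14 in 3 animals and 13.98 in animal 3HF224, against 13.09, 12.83, 12.71 and 11.65 on RC. Neither of these split groups gave a call for Scd1. In BALB/cJ on day 33, also without a call, HFD animal 3HF256 had 9.65 and the others 12.04, 11.29 and 11.69. Their RC counterparts had 11.38, 11.70, 11.13 and 12.26.

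**Figure D2:**
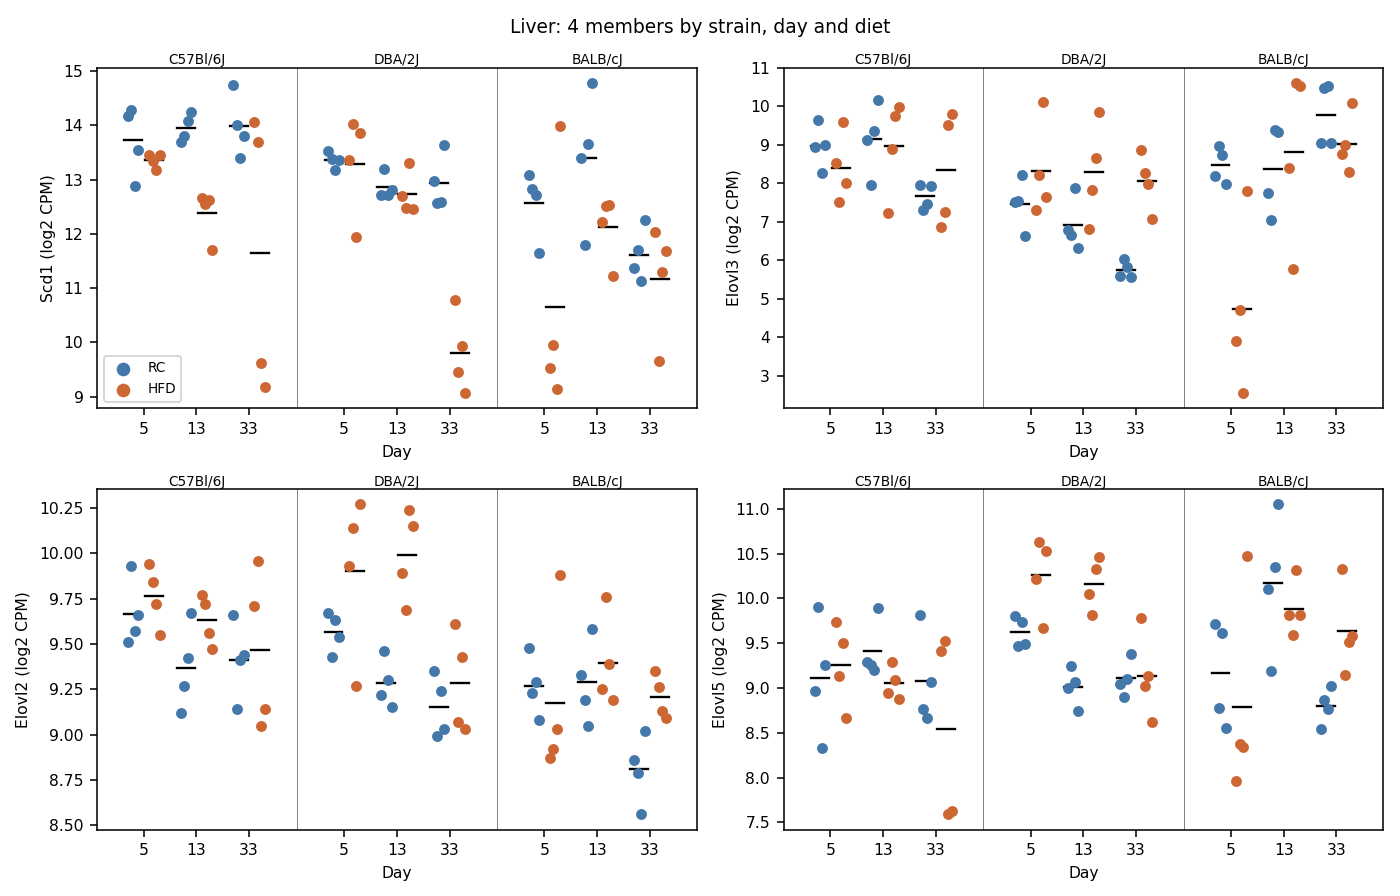
Liver level in log2 CPM (vertical axes, one panel each for Scd1, Elovl3, Elovl2 and Elovl5) by strain and day, blue for RC and orange for HFD; points are animals and black lines are means of 4. In DBA/2J on day 33 the HFD animals lie at 9.07 to 10.78 for Scd1, below the RC animals at 12.57 to 13.64, and at 7.08 to 8.87 for Elovl3, above the RC animals at 5.57 to 6.02.

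By day over the 3 strains, the test called 0 members on day 5 (6.48% of all genes; 3 members at an unadjusted p under 0.05, 0 by voom), Elovl2 on day 13 (2.05%) and Scd1 and Fads1 on day 33 (16.3%). Scd1 on day 33 fell by 1.98 (SE 0.40, adjusted p = 2.94e-04, limma). Elovl2 on day 13 rose by 0.36 (SE 0.10, adjusted p = 0.0475, limma), a call lost without 36 of the 72 animals and with quantile normalization (adjusted p = 0.0761). Fads1, the delta-5 desaturase, had 7.88, 8.80 and 9.60 log2 CPM as lowest, median and highest of 12 HFD livers on day 33 and 9.07, 9.29 and 9.57 on RC, so that the HFD range enclosed the RC range. It fell by 0.51 (SE 0.16, adjusted p = 0.0211, limma) on that day. This call was lost without animal 1HF258 or 1HF259, with adjusted p up to 0.0661, and with quantile normalization (0.0572).

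Over all strains and days together, the desaturases other than Scd1 did not pass the test in liver. Fads1 differed by -0.17 ± 0.09 (SE) and Fads2 by 0.12 ± 0.11 on the log2 scale, and Fads1 and Fads2 moved together across animals, with r = 0.88 over 72 animals after strain means were removed. The same animals stood apart for both: in the C57Bl/6J HFD day 33 group, Fads1 was 9.57 and 9.60 in 1HF209 and 1HF257 and 7.88 and 7.93 in 1HF258 and 1HF259. Fads2 was 9.22, 9.31, 7.50 and 7.24 in the same order. Fads3 differed by -0.26 ± 0.10 (adjusted p = 0.0598) and Scd2 by -0.12 ± 0.10 (adjusted p = 0.454) in limma.

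Elovl2, which elongates long polyunsaturated fatty acids towards docosahexaenoic acid, had 8.87, 9.55 and 10.27 log2 CPM as the lowest, median and highest of 36 HFD livers and 8.56, 9.31 and 9.93 on RC. The ranges overlapped over most of their length. Elovl2 rose by 0.22 (SE 0.06, adjusted p = 0.00468, limma), with a higher mean in 8 of 9 combinations of strain and day. In DBA/2J it rose by 0.39 (SE 0.10, adjusted p = 0.00372), and on day 13 the 4 HFD livers had 9.89, 9.69, 10.24 and 10.15 against 9.22, 9.46, 9.30 and 9.15 on RC. Those groups did not overlap, and the day 13 difference of 0.71 ± 0.18 (SE) had a limma adjusted p of 0.0247, in a comparison that called 1.91% of all genes. It was 0.0972, 0.0819, 0.0762, 0.0577 and 0.0862 without animals 2HF253, 2HF255, 2RC228, 2RC230 and 2RC231 respectively.

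Elovl5, the elongase of shorter polyunsaturated fatty acids, had 8.62, 9.93 and 10.63 log2 CPM as the lowest, median and highest of 12 HFD livers of DBA/2J and 8.74, 9.18 and 9.80 on RC. It rose there by 0.61 (SE 0.22, adjusted p = 0.0368, limma), a call lost without 9 of the 72 animals. In DBA/2J on day 13 its 4 HFD livers had 10.05, 9.81, 10.33 and 10.46 and its RC livers 9.0, 9.25, 9.07 and 8.74, without overlap. Elovl5 did not pass the test in that comparison, which called 1.91% of all genes. The share of all genes without overlap is not given for it. Elovl1, which makes saturated and monounsaturated very long chains, had 4.92, 5.30 and 5.88 on HFD and 4.97, 5.48 and 6.05 on RC over 36 livers each, nearly the same range. It fell by 0.17 (SE 0.05, adjusted p = 0.00489) in liver over all strains and days and was lower in 9 of 9 combinations. Elovl6, which takes palmitate to stearate, was called in DBA/2J on day 33: its HFD livers had 5.52, 4.67, 4.76 and 4.75 and its RC livers 6.57, 6.08, 6.42 and 6.87, a difference of -1.56 ± 0.48 (SE, limma adjusted p = 0.0172). The groups did not overlap, and without animal 2RC211 the limma adjusted p was 0.058. In the other 8 combinations it did not pass the test, with differences from -1.11 ± 0.48 (BALB/cJ on day 13) to 0.47 ± 0.48 (C57Bl/6J on day 5), and the F tests of the diet difference over strains and over days, given below, did not call it.

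Elovl3 is an elongase of saturated and monounsaturated very long chains known to be under circadian control in liver. Averaged over the 3 days, it moved in opposite directions in 2 strains. In DBA/2J the HFD livers averaged 8.21 ± 1.02 (SD, n = 12) and the RC livers 6.71 ± 0.90, a rise of 1.5 (SE 0.45, adjusted p = 0.0112, limma). In BALB/cJ they averaged 7.53 ± 2.68 and 8.87 ± 1.03, a fall by 1.34 (SE 0.45, adjusted p = 0.0344), a call lost without 11 of the 72 animals, with quantile normalization (adjusted p = 0.0598) and with only the compared animals in the fit (0.13). In C57Bl/6J the difference was -0.02 ± 0.45. The diet difference was unequal among the 3 strains by the limma F test (adjusted p = 0.00426), and BALB/cJ minus DBA/2J was -2.85 ± 0.64 (SE, adjusted p = 0.0029), a call that held under each alternative tried and without each animal in turn.

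The BALB/cJ fall of Elovl3 was called on day 5 and the DBA/2J rise on day 33. In BALB/cJ on day 5, the 4 HFD livers had 3.90, 4.70, 2.55 and 7.80 log2 CPM, the last from animal 3HF224. The RC livers had 8.18, 8.97, 8.72 and 7.99. The groups did not overlap and Elovl3 was 13.3-fold lower on HFD (log2 difference -3.73 ± 0.78, SE; limma adjusted p = 9.13e-04), where 12.5% of all genes were called. With only these 8 animals in the fit the adjusted p was 0.135. On day 13 the BALB/cJ HFD livers had 8.38, 5.78, 10.60 and 10.51 and the RC livers 7.74, 7.05, 9.37 and 9.33. On day 33 the BALB/cJ HFD livers had 8.75, 8.98, 8.28 and 10.08 and the RC livers 9.05, 10.46, 10.51 and 9.04. Elovl3 was not called in BALB/cJ on day 13 or day 33. In DBA/2J on day 33, the HFD livers had 8.87, 8.26, 7.98 and 7.08 and the RC livers 5.60, 6.02, 5.83 and 5.57, so that Elovl3 was 4.90-fold higher (2.29 ± 0.78, SE; limma adjusted p = 0.034). That call was lost without any of 6 animals: 2HF208, 2HF209, 2HF210, 2RC208, 2RC210 and 2RC211, with adjusted p from 0.0573 to 0.102. Within the C57Bl/6J HFD day 33 group, Elovl3 ran opposite to Scd1 at 6.87 and 7.24 in 1HF209 and 1HF257 and 9.50 and 9.80 in 1HF258 and 1HF259.

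Clock genes were also called in these comparisons, and their part in the Elovl3 result was not tested. In DBA/2J liver, 8 of 13 clock genes passed the test over days, beside 21.6% of all genes, 2 higher and 6 lower, with Clock at 0.86 ± 0.16 (SE), Arntl at 2.15 ± 0.51 and Per2 at -1.08 ± 0.24. On day 33 in DBA/2J, 7 of 13 did, beside 15.9% of all genes, 2 higher and 5 lower, with Per1 at -2.16 ± 0.38. In BALB/cJ on day 5, Per1 was the 1 clock gene of 13 past the threshold, at -1.66 ± 0.38, beside 12.5% of all genes.

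Beside the members, liver genes of fatty acid synthesis gave 0 higher and 7 lower of 9 measured over strains and days, with a median log2 difference of -0.41 against 0.01 for all genes. This comparison called 21.2% of all genes, 10.9% higher and 10.3% lower, which is the share beside each count in this paragraph. Thrsp, a lipogenic regulator protein, was at -1.38 ± 0.22 (SE), and Acss2, an acetyl-CoA synthetase, at -0.74 ± 0.11. Of the 10 genes of the elongation cycle and its electron supply, 1 rose and 2 fell: Cyb5r3, the cytochrome b reductase that feeds electrons to desaturases, was at -0.43 ± 0.05, Tecr, the last enzyme of the elongation cycle, at -0.21 ± 0.03, and Hacd3 at 0.13 ± 0.04. Of 6 genes of peroxisomal chain shortening, 4 rose and 1 fell, among them Hsd17b4 at 0.25 ± 0.04. Of 12 lipogenic regulators, 3 fell: Scap at -0.18 ± 0.04, Insig1 at -0.49 ± 0.12 and Srebf2 at -0.22 ± 0.06. Of 2 measured relatives outside the list, the desaturase family gene Fads6 fell by 0.25 (SE 0.05), while Degs1, a sphingolipid desaturase, was at -0.06 ± 0.04. Of 4 acyl-CoA synthetases, Acsl1 rose by 0.38 (SE 0.07).

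Counts of called members in the other liver comparisons are set beside the share of all genes called. HFD against RC gave 1 of 10 for C57Bl/6J (2.31% of all genes), 4 for DBA/2J (21.6%) and 2 for BALB/cJ (14.8%). For days 5, 13 and 33 the counts were 0, 0 and 0 in C57Bl/6J (0.135%, 0.317% and 0.912% of all genes), 0, 1 and 3 in DBA/2J (6.97%, 1.91% and 15.9%), then 1, 0 and 0 for BALB/cJ (12.5%, 0.365% and 9.59%). Where limma called 0, voom on recovered reads also called 0, and an unadjusted p under 0.05 was met by 0, 2 and 1 members in C57Bl/6J, 1 in DBA/2J on day 5, and 2 and 2 in BALB/cJ on days 13 and 33. The diet difference between strains was called for 1 member by the F test (15.7% of all genes); the pairs gave 0 for DBA/2J minus C57Bl/6J (10.3%), 0 for BALB/cJ minus C57Bl/6J (4.04%) and 1 for BALB/cJ minus DBA/2J (8.61%). The F test over days called 0 members (3.35% of all genes), with 3 at an unadjusted p under 0.05 and 0 by voom.

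**Figure D3:**
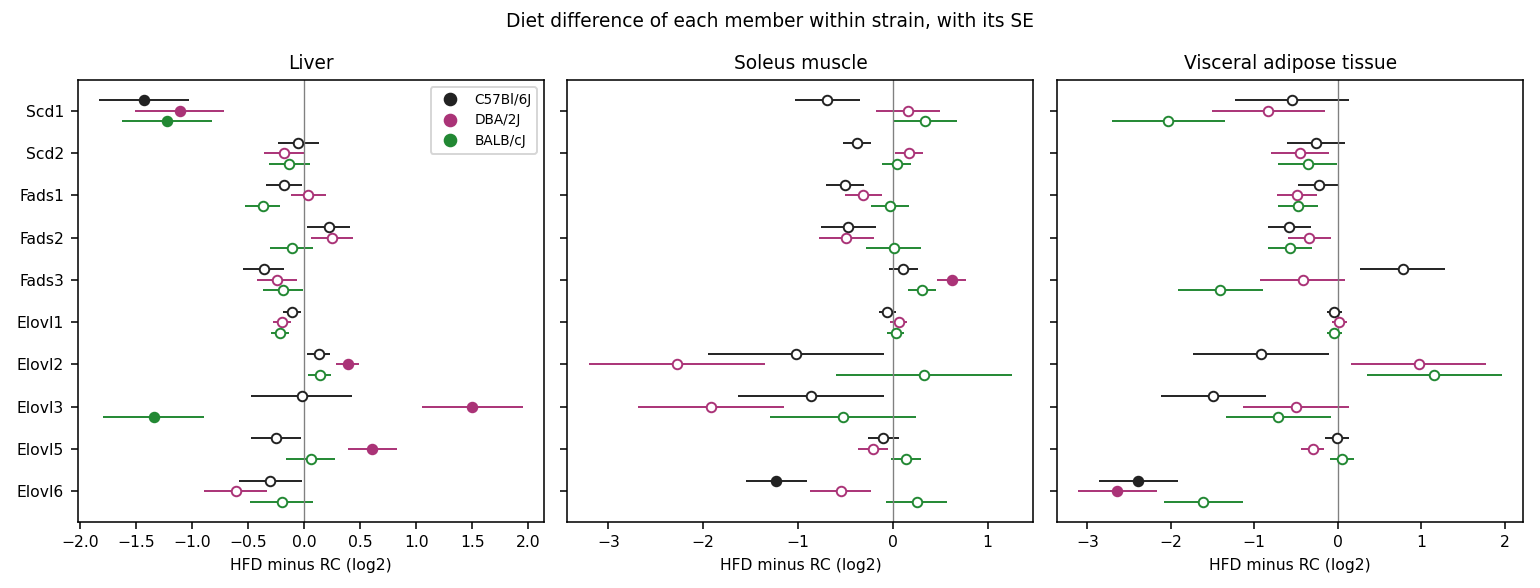
HFD minus RC difference on the log2 scale (horizontal axis) of each of the 10 genes within each strain, averaged over 3 days, in liver, muscle and adipose tissue; bars are the SE of the fit and filled points passed an adjusted p of 0.05. Liver Scd1 is filled in all 3 strains at -1.43 to -1.11 (the C57Bl/6J point is not called with voom), liver Elovl3 is filled on either side of 0, and adipose Elovl6 lies at -2.64 to -1.61.

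On regular chow, liver levels differed between strains. DBA/2J and C57Bl/6J differed in 2 members (48.1% of all genes called), BALB/cJ and C57Bl/6J in 4 (46.8%), and BALB/cJ and DBA/2J in 1 (42.1%). Elovl3 on RC was 7.31, 8.60 and 10.16 in C57Bl/6J livers, 5.57, 6.64 and 8.20 in livers of DBA/2J, and 7.05, 9.0 and 10.51 in livers of BALB/cJ, as lowest, median and highest of 12. DBA/2J was the low strain: its difference was -1.88 ± 0.45 (SE) from C57Bl/6J and BALB/cJ exceeded it by 2.16 ± 0.45, with limma adjusted p of 4.29e-04 and 7.60e-05. Scd1 was 12.88, 13.91 and 14.75 in C57Bl/6J and 11.13, 12.49 and 14.78 in BALB/cJ, lower in BALB/cJ by 1.36 ± 0.40 (adjusted p = 0.00398). In the same comparison Elovl6 was at -1.0 ± 0.28 and Elovl2 at -0.36 ± 0.10, while Elovl1 was at 0.20 ± 0.08 and, in DBA/2J minus C57Bl/6J, at 0.31 ± 0.08. The BALB/cJ call of Elovl1 was lost without 10 of the 72 animals and with quantile normalization (adjusted p = 0.0503). The day on RC was called for Elovl1 and Elovl2 (limma F test, adjusted p = 0.0433 and 0.0331; 10.4% of all genes): Elovl2 had medians of 9.53, 9.29 and 9.09 on days 5, 13 and 33. The Elovl1 and Elovl2 calls were lost without 20 and 9 of the 72 animals.

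In visceral adipose tissue, Elovl6 was the member with a diet difference over all strains and days. It was 1 of 10 members called, beside 2.67% of all genes, and the median of the 10 was -0.38 against 0.00. The 36 HFD libraries had 3.89, 6.14 and 9.55 log2 CPM as lowest, median and highest, and the 36 RC libraries 5.59, 8.55 and 10.94. The ranges overlapped, but the HFD median lay near the bottom of the RC range. Elovl6 fell by 2.22 (SE 0.27, adjusted p = 2.63e-07, limma), a 4.64-fold lower level, lower in 9 of 9 combinations of strain and day. The call held in all 12 settings tried and without each of the 72 animals, and the mean difference within the 3 ranges of animal numbers was -2.37, -1.51 and -2.39.

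Within strain, Elovl6 fell by 2.39 (SE 0.47, adjusted p = 0.0102) in C57Bl/6J and by 2.64 (SE 0.47, adjusted p = 0.00106) in DBA/2J, and differed by -1.61 ± 0.47 (adjusted p = 0.0784, limma) in BALB/cJ. Without the 2 libraries with few adipocyte markers Elovl6 was at -2.19 ± 0.28 over strains and days and at -1.53 ± 0.50 (limma adjusted p = 0.343) in BALB/cJ. By day over the 3 strains it was called on day 33, at -3.22 ± 0.47 (limma adjusted p = 3.9e-05), a call that held under the 12 settings and without each animal. It was the 1 member called on that day (1.51% of all genes), with 0 on day 5 and 0 on day 13 (0% and 0% of all genes; 1 and 1 at an unadjusted p under 0.05, 0 by voom). The difference between the strains' responses was not called, so the strains were not shown to differ. The widest gap was in DBA/2J on day 33, where the 4 HFD libraries had 5.03, 5.85, 7.01 and 5.08 log2 CPM and the 4 RC libraries 10.14, 10.94, 9.34 and 9.89. The groups were more than 2 units apart, and Elovl6 was 20.2-fold lower (-4.34 ± 0.82, SE; limma adjusted p = 0.00243). B cell markers averaged 1.54 or less in all 8 of those libraries. In C57Bl/6J on day 13 the HFD libraries had 4.69, 6.35, 5.85 and 4.53 and the RC libraries 9.34, 8.13, 8.10 and 9.74, which did not overlap either, but did not pass the test there.

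**Figure D4:**
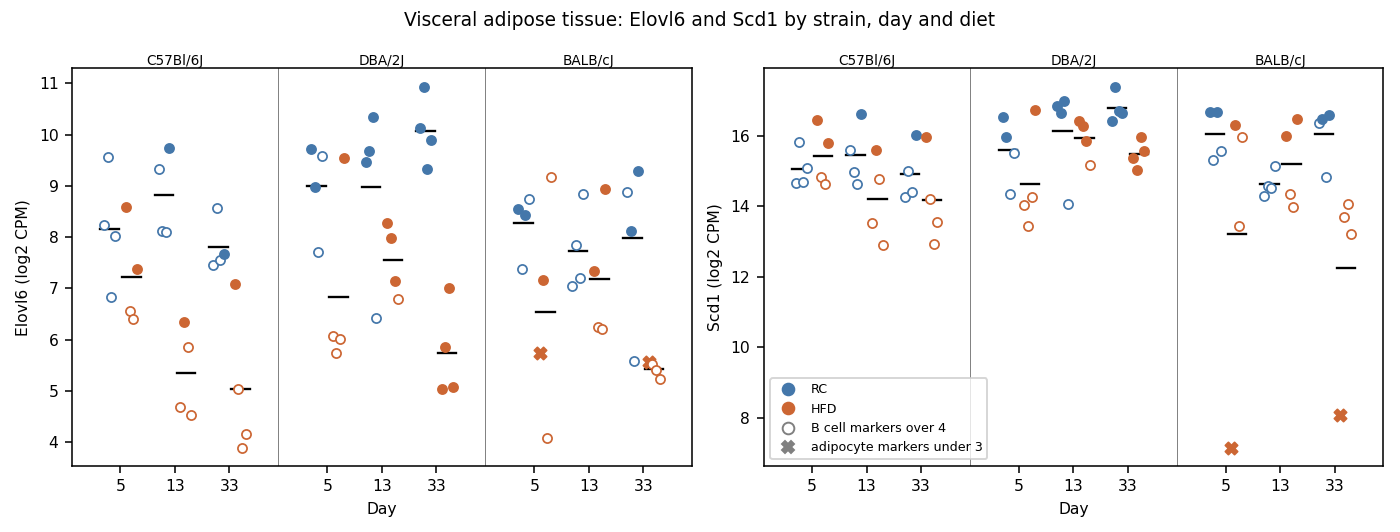
Adipose level of Elovl6 and Scd1 in log2 CPM (vertical axes) by strain and day, blue for RC and orange for HFD; points are animals, black lines means of 4, open points libraries whose B cell markers average over 4, and crosses the 2 libraries whose adipocyte markers average under 3. Elovl6 is 9.34 to 10.94 on RC and 5.03 to 7.01 on HFD in DBA/2J on day 33, and Scd1 drops to 7.15 and 8.09 only in the crossed libraries.

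In BALB/cJ adipose tissue on day 33, 4 members passed the test, beside 10.7% of all genes: Scd1, Fads1, Fads3 and Elovl6, all lower on HFD. Scd1 was 8.09, 13.69, 14.05 and 13.21 on HFD and 16.37, 16.47, 14.82 and 16.57 on RC, and Fads3, whose own reaction is less well known, was 2.29, 6.26, 6.70 and 6.66 on HFD and 8.75, 8.91, 7.74 and 8.22 on RC. The first value of each HFD group is the library of animal 3HF208, with few adipocyte markers. Fads1 was 6.21, 6.01, 6.18 and 6.08 on HFD against 7.30, 8.42, 6.75 and 7.76 on RC, and Elovl6 was 5.57, 5.53, 5.40 and 5.24 against 8.89, 8.13, 5.59 and 9.30. The groups of these 4 genes did not overlap, but the genes are those called in this comparison, so that is no further result. The share of all genes without overlap is not given here. The Elovl6 groups came within a few hundredths of each other. The limma differences were -3.80 ± 1.18 (SE) for Scd1, -1.44 ± 0.41 for Fads1, -2.93 ± 0.89 for Fads3 and -2.54 ± 0.82 for Elovl6, with adjusted p of 0.0346, 0.0269, 0.0316 and 0.039. Without the 2 libraries with few adipocyte markers all 4 calls were lost: the differences were -2.41 for Scd1, -1.47 for Fads1, -1.87 for Fads3 and -2.59 for Elovl6, with adjusted p of 0.0723, 0.0577, 0.0665 and 0.0676. Leaving out animal 3RC209 or 3RC259 also ended each of the 4 calls, 3RC208 those of Scd1, Fads3 and Elovl6, and 3HF256 or 3HF259 that of Elovl6, with adjusted p up to 0.155. With only the 8 compared animals in the fit no call was left (adjusted p of 0.277 for Scd1, 0.145 for Fads1, 0.177 for Fads3 and 0.158 for Elovl6). Quantile normalization ended the call of Scd1 (0.0794), voom that of Fads3 (0.0544) and B cell markers as a covariate that of Elovl6 (0.0523).

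Adipocyte markers moved in the same comparison, which called 10.7% of all genes: 6 of 7 fell, with a median of -3.14, and 3 of 4 mesothelial markers fell. These falls include the library of animal 3HF208 and are not given without it. With the adipocyte marker mean as a covariate, the 4 genes differed by -0.79 (Scd1), -0.72 (Fads1), -0.24 (Fads3) and -1.63 (Elovl6), with adjusted p from 0.807 to 0.912. In the library of animal 3HF208, Adipoq was 3.61 and Lep 0.38 log2 CPM, against medians of 11.07 and 8.70 over the 72 libraries. Over the 72 adipose libraries, Spearman's rho with the adipocyte marker mean was 0.92 for Fads3, 0.78 for Scd1, 0.74 for Fads1 and 0.34 for Elovl6.

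Across the 72 adipose libraries all 10 members had a negative Spearman's rho with the mean of the 6 B cell markers. It ran from -0.84 for Fads3, -0.74 for Scd1, -0.72 for Fads1, -0.65 for Elovl5 and -0.62 for Scd2 to -0.36 for Elovl6. The libraries differed in strain, diet and depth, and these differences were not removed. With T cell markers rho was -0.76 for Fads3, -0.78 for Scd1 and -0.76 for Fads1. With the B cell marker mean as a covariate, 4 members passed the test for diet over strains and days, beside 11.6% of all genes: Fads1 at -0.44 ± 0.08 (SE), Fads2 at -0.53 ± 0.12, Scd1 at -1.18 ± 0.37 and Elovl6 at -2.27 ± 0.23. Without it, the values of Fads1, Fads2 and Scd1 were -0.40 ± 0.14, -0.50 ± 0.15 and -1.14 ± 0.39, with limma adjusted p of 0.107, 0.0602 and 0.112. With the covariate and without the 2 libraries with few adipocyte markers, they were -0.39, -0.49 and -0.77, all 3 past the threshold, and Elovl6 was at -2.20. The remaining members did not pass the test for diet in adipose tissue: Scd2 was at -0.35 ± 0.20, Fads3 at -0.35 ± 0.30, Elovl1 at -0.02 ± 0.05, Elovl5 at -0.09 ± 0.08, Elovl3 at -0.90 ± 0.36 and Elovl2 at 0.40 ± 0.47. Without the 2 libraries with few adipocyte markers, Scd2 was at -0.33, Fads3 at -0.04, Elovl5 at -0.13, Elovl3 at -0.75 and Elovl2 at 0.12, and none of them passed. Elovl2 had a Spearman rho of 0.79 with the hepatocyte markers over the 72 adipose libraries.

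Genes of fatty acid synthesis fell together with Elovl6 in adipose tissue. The values in this paragraph include the libraries with few adipocyte markers. Of 9 measured, 0 rose and 8 fell over strains and days, in a comparison that called 2.67% of all genes. Their median was -1.44 against 0.00 for all genes. Fasn, fatty acid synthase, was at -2.10 ± 0.33 (SE), Acaca, acetyl-CoA carboxylase, at -1.86 ± 0.31, Acly, ATP citrate lyase, at -1.51 ± 0.26 and Acss2 at -1.37 ± 0.24. Of 6 relatives of the members measured, Scd3, a close copy of Scd1, fell by 0.85 (SE 0.24, adjusted p = 0.0403, limma). Reads of Scd1 and Scd3 can be hard to separate, so the Scd3 value is uncertain. Of 10 elongation cycle genes, Tecr fell by 0.53 (SE 0.13) and Hacd3 rose by 0.21 (SE 0.06). Of 12 lipogenic regulators limma called 0, with 1 at an unadjusted p under 0.05. Of 7 thermogenic genes, Cidea, a lipid droplet protein, fell by 1.28 (SE 0.30).

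The remaining adipose comparisons gave few calls. Within strain, 1 member was called in C57Bl/6J (0.115% of all genes), 1 in DBA/2J (0.411%) and 0 in BALB/cJ (0.435%), where 5 met an unadjusted p under 0.05 and voom called 0. Over days 5, 13 and 33 the counts were 0, 0 and 0 in C57Bl/6J (0%, 0% and 0.00605% of all genes), 0, 0 and 1 in DBA/2J (0.00605%, 0.00605% and 0.248%), then 0, 0 and 4 for BALB/cJ (0%, 0% and 10.7%); voom also called 0 in each comparison where limma did. Members at an unadjusted p under 0.05 numbered 0, 3 and 1 in C57Bl/6J, 1 and 0 in DBA/2J on days 5 and 13, and 3 and 0 in BALB/cJ on those days. The F tests called 0 members for the diet difference between strains (0.0846% of all genes), between days (0%) and for the day on RC (0.0242%), with 1, 1 and 0 at an unadjusted p under 0.05 and 0 by voom.

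On regular chow, adipose Elovl3 was higher in DBA/2J than in both other strains. The DBA/2J RC libraries of days 5, 13 and 33 ranged from -1.27 to 3.58 log2 CPM, those of C57Bl/6J from -2.96 to 1.88 and those of BALB/cJ from -2.78 to 1.92, so the strains overlapped. DBA/2J exceeded C57Bl/6J by 2.56 ± 0.63 (SE, 5.90-fold, limma adjusted p = 0.00164), and BALB/cJ was 8.05-fold below DBA/2J (-3.01 ± 0.63, adjusted p = 4.26e-04). Elovl3 is known as a marker of thermogenic fat, and over the 72 libraries its Spearman rho with the mean of the thermogenic genes was 0.78, beside 0.77 for Scd1 and 0.69 for Fads2. Its rho with the hepatocyte markers was 0.53, and the gene most like it was Alb (r = 0.76 after strain means were removed). In all, 3 members were called between DBA/2J and C57Bl/6J (41.7% of all genes), 0 between BALB/cJ and C57Bl/6J (11.2%; 1 at an unadjusted p under 0.05, 0 by voom) and 3 between BALB/cJ and DBA/2J (16.2%). The other called values were Fads3 at 1.58 ± 0.51 and Elovl1 at 0.23 ± 0.09 for DBA/2J minus C57Bl/6J, and Elovl6 at -1.36 ± 0.47 and Elovl1 at -0.27 ± 0.09 for BALB/cJ minus DBA/2J. With B cell markers as a covariate 4 of these 6 calls were lost: Fads3 was at 0.83 ± 0.51, Elovl1 at 0.07 ± 0.08 and -0.18 ± 0.08, and Elovl6 at -0.81 ± 0.41, while Elovl3 stayed past the threshold in both comparisons, at 1.84 ± 0.65 and -2.58 ± 0.62. The Elovl6 call was also lost with voom (adjusted p = 0.0853) and without 12 of the 72 animals, and the Elovl1 calls without 15 and 9.

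In soleus muscle, 2 of the 10 genes passed the test for diet over strains and days, beside 17.4% of all genes, with a median of -0.17 for the 10 against 0.00. Fads3 rose and Elovl6 fell. Fads3 on HFD was 3.02, 3.43 and 5.51 log2 CPM and on RC 2.19, 3.22 and 3.89 as lowest, median and highest of 36, with most of both ranges shared. It rose by 0.35 (SE 0.09, adjusted p = 0.0035, limma), higher in 7 of 9 combinations of strain and day, and in DBA/2J it rose by 0.62 (SE 0.15, adjusted p = 0.00498). With adipocyte markers as a covariate the overall rise was 0.14 ± 0.05 (adjusted p = 0.0487) and the DBA/2J call was lost, as it was with only the compared animals in the fit (adjusted p = 0.0697). The mean of 7 adipocyte markers in muscle had a median of 4.99 on HFD and 4.68 on RC, and Fads3 followed it with a Spearman rho of 0.78 over 72 libraries. Within the 3 ranges of animal numbers the Fads3 difference was 0.53, 0.34 and -0.08, so it did not hold in the upper range, while that of Elovl6 was -0.14, -0.87 and -0.96.

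Elovl6 in muscle had 0.33, 1.42 and 4.24 log2 CPM on HFD and 0.13, 2.10 and 3.93 on RC as lowest, median and highest of 36, ranges that overlapped almost fully. It fell by 0.51 (SE 0.19, adjusted p = 0.0474, limma) over strains and days, a call lost without 36 of the 72 animals, with voom (adjusted p = 0.0741) and with hepatocyte markers as a covariate (0.104). Within strain the test was passed in C57Bl/6J: its HFD muscles averaged 1.19 ± 0.41 (SD, n = 12) and the RC muscles 2.42 ± 0.86, a fall by 1.23 (SE 0.32, adjusted p = 0.0109) that held without each animal in turn. In BALB/cJ the difference was 0.25 ± 0.32, and BALB/cJ minus C57Bl/6J was 1.48 ± 0.45 (SE, limma adjusted p = 0.036), lost without 14 of the 72 animals and with voom. Fatty acid synthesis genes of C57Bl/6J muscle moved with Elovl6, 0 higher and 4 lower of 9, beside 5.75% of all genes called: Acaca at -0.72 ± 0.16, Fasn at -1.33 ± 0.31, Acly at -0.64 ± 0.16 and Slc25a1, the mitochondrial citrate carrier, at -0.83 ± 0.24. Over all strains and days, 1 of the 9 rose in muscle, Acacb at 0.21 ± 0.04, and none of the others passed the test, beside 17.4% of all genes called.

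The other muscle members did not pass the test for diet over strains and days. Scd1 differed by -0.06 ± 0.19 (SE), Scd2 by -0.06 ± 0.09, Elovl1 by 0.01 ± 0.05 and Elovl5 by -0.06 ± 0.09 on the log2 scale. Fads1 and Fads2 were at -0.28 ± 0.12 and -0.31 ± 0.17, and moved together with r = 0.89 over 72 muscles after strain means were removed. Their Spearman rho with the mean of the hepatocyte markers, described below, was 0.39 and 0.36 over the same muscles. The highest values of both, 6.44 and 4.62 log2 CPM, were in the C57Bl/6J RC day 5 animal 1RC226. Elovl2 and Elovl3 were at -0.99 ± 0.54 and -1.10 ± 0.45, with limma adjusted p of 0.2 and 0.0756.

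Elovl2 and Elovl3 were near the floor of the muscle table, and were higher in the libraries with more hepatocyte marker RNA. At 0 reads the muscle table gives -3.74 log2 CPM, a level reached by Elovl2 in 12 libraries and by Elovl3 in 13. The mean of 6 hepatocyte markers in muscle ran from -3.01 to 8.78, with a median of -0.27 on HFD and 2.44 on RC, and its Spearman rho over 72 libraries was 0.93 with Elovl2 and 0.87 with Elovl3. The highest Elovl2 value was 6.17, in the C57Bl/6J RC day 5 animal 1RC226, whose Elovl3 was 4.06. The BALB/cJ HFD day 33 animal 3HF208 had 2.17 for Elovl2 and -2.72 for Elovl3. The gene most like each of them over 72 muscles was Alb, at r = 0.93 for Elovl2 and r = 0.88 for Elovl3 after strain means were removed. Elovl2 was called on RC between BALB/cJ and DBA/2J at -2.57 ± 0.93 (SE, limma adjusted p = 0.023), and that call was lost with hepatocyte or adipocyte markers as a covariate (adjusted p = 0.103 and 0.069), with voom (0.141), with the number range as a covariate (0.0704) and without animal 2RC200, 2RC209, 2RC211 or 2RC231.

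**Figure D5:**
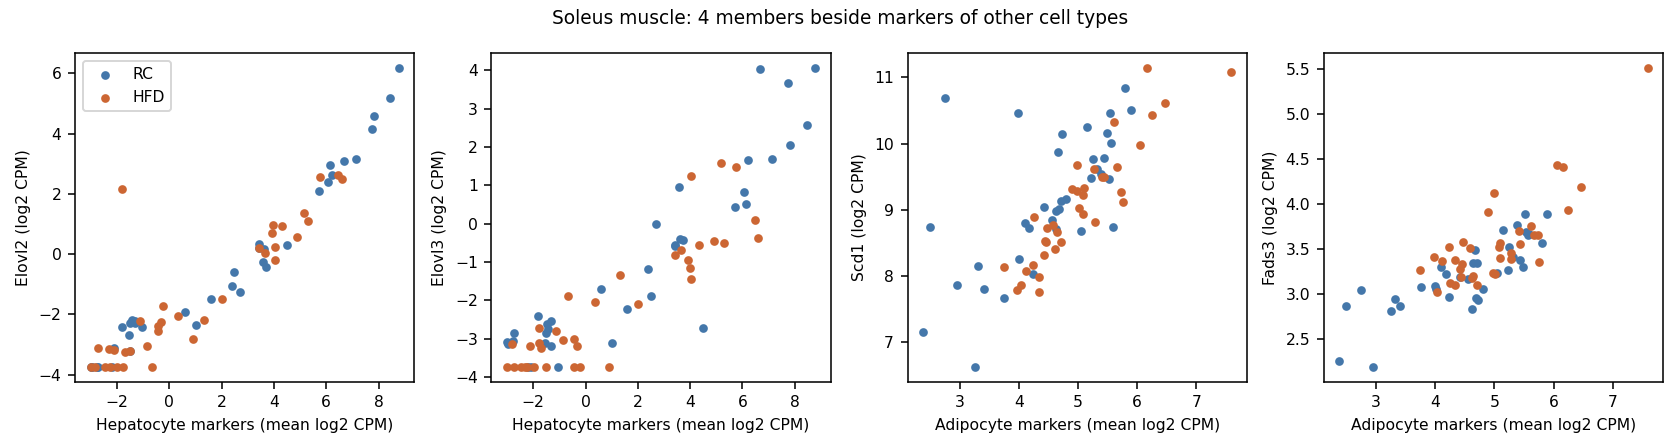
Soleus muscle level of Elovl2 and Elovl3 in log2 CPM (vertical axes) against the mean of 6 hepatocyte markers, and of Scd1 and Fads3 against the mean of 7 adipocyte markers (horizontal axes, log2 CPM); each point is 1 of 72 libraries, blue for RC and orange for HFD. Elovl2 and Elovl3 rise from the floor of -3.74 with the hepatocyte markers (Spearman rho 0.93 and 0.87), and Scd1 and Fads3 with the adipocyte markers (0.75 and 0.78).

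The other muscle comparisons are summarised by their counts. Within strain, limma called 1 member in C57Bl/6J (5.75% of all genes), 1 in DBA/2J (8.73%) and 0 in BALB/cJ (11.5%; 1 at an unadjusted p under 0.05, 0 by voom). By day the counts were 0 in each of the 9 combinations by limma and by voom, beside 0.843%, 0.572% and 4.33% of all genes in C57Bl/6J, 0.044%, 4.55% and 3.19% for DBA/2J, and 3.7%, 0.0587% and 3.79% for BALB/cJ on days 5, 13 and 33. Over the 3 strains the counts were also 0 on days 5, 13 and 33 (0.66%, 3.51% and 17.8% of all genes; 2, 2 and 1 at an unadjusted p under 0.05, 0 by voom). At an unadjusted p under 0.05 in the 9 combinations the members numbered 4, 3 and 1, then 3, 3 and 0, then 1, 0 and 0. Pairs of strains differed in the diet effect for 0 members in DBA/2J minus C57Bl/6J (4.3%), 1 in BALB/cJ minus C57Bl/6J (6.52%) and 0 in BALB/cJ minus DBA/2J (3.07%). The F tests called 0 members between strains (9.83%), between days (0.99%) and for the day on RC (7.85%), with 2, 1 and 2 at an unadjusted p under 0.05 and 0 by voom. On RC, 1 member was called for DBA/2J minus C57Bl/6J (37%), 0 for BALB/cJ minus C57Bl/6J (44.5%; 1 unadjusted, 0 by voom) and 2 for BALB/cJ minus DBA/2J (40.4%). Scd2, the Scd gene best known from brain, was the low one in DBA/2J, at -0.39 ± 0.15 against C57Bl/6J and 0.38 ± 0.15 higher in BALB/cJ. Both Scd2 calls were lost with adipocyte markers as a covariate (adjusted p = 0.111 and 0.186), the first also with the number range as a covariate (0.0592) and the second with hepatocyte markers (0.0795), and without 9 and 10 of the 72 animals.

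Likeness to other genes was measured as r over 72 animals after strain means were removed, among genes at or above the median level. In liver the genes most like Scd1 were Echdc1 (0.89), Acss2 (0.88) and Cyb5r3 (0.87), those most like Elovl6 were Fasn (0.91), Acaca (0.88) and Acly (0.86), and those most like Elovl3 were Pnkd (0.87), Ablim3 (0.87) and Gldc (0.86). Elovl5 in liver was most like Acsl5 (0.87), Elovl2 like Adipor2 (0.63), Fads1 like Slc25a1 (0.78), Fads2 like Gbe1 (0.78), Elovl1 like Cxadr (0.67), Scd2 like Vim (0.60) and Fads3 like Gsn (0.60). In adipose tissue Elovl6 was most like Acss2 (0.96) and Tkt (0.94), Scd1 like Pygl (0.97) and Fads3 like Lipe (0.98). In muscle Fads3 was most like Cidec (0.90), Adipoq (0.89) and Plin1 (0.88), Elovl6 like Acly (0.81) and Fasn (0.81), and Scd1 like Fasn (0.86). These are descriptions over libraries that differ in diet, day and cell makeup, and those differences were not removed.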

How the data were processed

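RNA was sequenced as single reads of stranded mRNA libraries, per the labels' protocols; STAR 2.5.3a, edgeR and the GRCm38 assembly are named in the submitters' processing notes without roles. The deposited files hold log2 CPM per gene, normalized by the authors, 1 table per tissue with 72 libraries each; 8 further liver samples are not analysed here. Library depth was recovered from the steps between low values: 100% of values under 2000 reads were whole within 0.05 reads. The column titles of the tables stood one column off and were read by name.

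Genes reaching 0 log2 CPM in at least 4 animals were tested with limma 3.58.1 (R 4.3.3), with a variance trend, in 1 fit of 18 group means per tissue, two-sided, with Benjamini-Hochberg adjustment over all genes of a tissue and contrast and a threshold of 0.05. The fit was tried on simulated liver data with known diet changes, drawn as normal values without strain or day differences. That trial did not cover muscle or adipose tissue, and its outcome is not given here. Alternatives were voom on recovered reads, other filters, quantile normalization, marker covariates, the number range or number of the animal, and each animal left out.

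The members and gene lists were chosen with earlier results of these data known. All members are named, with up to 4 called genes of smallest p per list and up to 3 of the most alike genes per member; a gene that this rule gave is not reported here. Exon lengths and symbols are from GENCODE M21. P-values set each difference against the spread between the sampled animals, which the fit estimated over all 18 groups of a tissue.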

Additional observations from a re-analysis of the deposited data

Results flagged for a closer look

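In the called groups, 4 groups of 4 animals held a value far from the other 3. In liver, Elovl6 of the DBA/2J HFD day 33 group was 5.52 in animal 2HF208 and 4.67 to 4.76 in the others, a gap of 0.895 of the range. In adipose tissue, Fads3 of the BALB/cJ HFD day 33 group was 2.29 in animal 3HF208 and 6.26 to 6.70 in the others (0.900 of the range), and Scd1 was 8.09 against 13.21 to 14.05 (0.859); this is one of the libraries with few adipocyte markers. Scd1 of the BALB/cJ RC day 33 group was 14.82 in animal 3RC211 and 16.37 to 16.57 in the others (0.890). Over all members and tissues, 42 of 540 groups of 4 passed Dixon's critical value, where chance gives about 1 in 20.

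In all, 3 tests of the diet difference between strains were passed, all by Elovl3 in liver or Elovl6 in muscle. Liver Elovl3 passed the F test over strains (adjusted p = 0.00426, limma) and the test of BALB/cJ against DBA/2J (-2.85 on the log2 scale). Muscle Elovl6 passed the test of BALB/cJ against C57Bl/6J (1.48). The muscle F test over strains did not call Elovl6. Its pair call was lost with voom and when certain single animals were left out.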

How the results depend on the processing

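Most calls of single members kept their direction and side of the threshold: over the alternatives other than leaving out 1 animal, 421 values did and 84 fell short of it, and over the fits without 1 animal 3482 did and 262 fell short; none reversed. The counts below are of called members, from the value of the fit as reported to that of the alternative, and the cause of a change was not tested unless named. With B cell markers as a covariate, adipose counts went from 1 to 4 for diet over strains and days, from 2 to 6 within strain and from 6 to 3 for strains on RC, and with the 2 libraries of few adipocyte markers also left out to 4 and 5 for the first 2; leaving out those 2 libraries alone took the count within strain and day from 5 to 1. These 2 settings without libraries, and the adipocyte covariate in adipose tissue and hepatocyte covariate in muscle, were chosen after seeing the data. With adipocyte markers as a covariate, adipose counts were 2 over strains and days and 2 within strain and day, and muscle had 1 within strain. With hepatocyte markers as a covariate, muscle had 1 over strains and days, 1 within strain and day, 1 for the difference between strains and 1 for strains on RC.

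Animal numbers shared between groups were not taken as pairs, since not every pair's correlation was over 0.1: the deviations of same-numbered animals correlated at a median of 0.133 for liver (from -0.429 to 0.586, with 12 of 20 pairs over 0.1), 0.00217 for muscle (7 of 20 over 0.1) and -0.359 for adipose tissue (4 of 20). With the animal number as a replicate block, liver counts went from 5 to 12 within strain and day, from 1 to 2 for the diet difference between strains, from 0 to 1 for that between days and from 2 to 0 for the day on RC, muscle counts from 2 to 1 over strains and days, from 2 to 1 within strain and from 3 to 0 for strains on RC, and adipose counts from 5 to 2 within strain and day and from 6 to 1 for strains on RC. Calls lost under the block include liver Elovl2 over strains and days (adjusted p = 0.133), on day 13 (0.137) and in DBA/2J on day 13 (0.108), liver Scd1 in C57Bl/6J (0.0679), and Elovl6 in C57Bl/6J muscle (0.276) and adipose tissue (0.999). With the number range as a covariate, the liver day on RC had 1, and adipose tissue 2 over strains and days, 4 within strain and 3 for strains on RC. Within day over strains, a comparison whose alternatives were all added after seeing the data, liver counts went from 3 to 1 with quantile normalization and 5 with the number range, and adipose counts from 1 to 2 with quantile normalization, 4 with B cell markers, 3 with adipocyte markers, 2 without the 2 libraries of few adipocyte markers and 5 with B cell markers and without those libraries. With only the compared animals in the fit, the counts within strain and day were 9 for liver, 1 for muscle and 1 for adipose tissue. Quantile normalization gave 4 within strain and 1 for the day on RC in liver and 5 for strains on RC in muscle. The stricter filter left 4 of the 10 members to test in muscle, without Fads3 and Elovl6, so that its counts of 0 and 0 there over strains and days and within strain are not lost calls; it gave 2 in adipose tissue over strains and days; voom and the fit with no variance trend each gave 1 in muscle over strains and days.

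With 1 animal left out at a time, counts within day over strains ranged from 2 to 5 for liver, 0 to 1 for muscle and 1 to 3 for adipose tissue. Other liver counts ranged from 3 to 6 over strains and days, 3 to 10 within strain and day, 1 to 2 between strains, 0 to 1 between days and 0 to 2 for the day on RC. Muscle counts ranged from 1 to 4 over strains and days, 0 to 1 within strain and day, 0 to 1 between strains, 0 to 6 for strains on RC and 0 to 2 for the day on RC. Adipose counts ranged from 1 to 3 over strains and days, 2 to 5 within strain, 1 to 6 within strain and day and 3 to 10 for strains on RC. Depth limits Elovl2 and Elovl3 in muscle and adipose tissue, where levels lie near the floor.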
